A study of Mus musculus with 16 samples.

Results

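Ovariectomy (Ovx) was compared with intact ovaries in the left atrium of 24-month-old female C57BL6/J mice, across both angiotensin II (AngII) states at once. All 16 of the 16 libraries of the series entered: 8 from Ovx mice, of which 4 had received no AngII (Ovx) and 4 had received AngII for the last 4 weeks (Ovx + AngII), and 8 from intact mice, of which 4 had received no AngII (Ctrl) and 4 had received AngII (AngII). The Ovx mice had lost their ovaries at 12 months of age, and AngII was infused from a subcutaneous osmotic pump. The 8 Ovx libraries were set against the 8 intact ones in an additive model that carried AngII as the other term, so that every log2 difference below is Ovx minus intact at equal AngII state. The study states that sham surgery was done without a vehicle-filled pump, and does not say whether it matched the ovariectomy, the pump or both. No hormone level is among the labels. The labels do not tie a library to a mouse, so p-values measure the spread between these samples.

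The ovary is the main source of estradiol and progesterone in the female mouse. Estradiol enters cells and acts mainly through the nuclear receptors Esr1 and Esr2, which bind DNA at estrogen response elements or are tethered to other transcription factors, and it can also signal through the membrane receptor Gper1. Progesterone acts through Pgr. Removing the ovaries is a common model of the menopause, and delayed surgery is used because reproductive capacity has already declined by mid-life. The left atrium, which fills the left ventricle and secretes the natriuretic peptides Nppa and Nppb, is a tissue of atrial cardiomyocytes, fibroblasts, endothelial cells and resident macrophages.

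No gene differed between Ovx and intact atria after adjustment for multiple tests. Of the 14263 genes with a mean rescaled value of at least 10, 0 reached an adjusted p of 0.05 or less (limma, Benjamini-Hochberg), and the background share called was therefore 0%. The smallest adjusted p was 0.343, shared by 54 genes, and the smallest unadjusted p was 7.17e-05. At an unadjusted p under 0.05 there were 1334 genes, or 9.35% of those tested: 576 were higher in Ovx atria (4.04%) and 758 lower (5.31%). With a log2 difference of at least 1 as well, 12 were higher and 58 lower. In the same model and the same libraries the AngII term passed for 1317 genes that rose and 1256 that fell, 18% of those tested, of which 153 and 134 also had a log2 difference of at least 1. Because no gene passed for Ovx, the values below are given as measured differences, and "at p under 0.05" always means unadjusted. Where 4 libraries are said not to overlap 4 others within an AngII state, this only describes the values. The share of all genes that separate in this way was not counted.

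**Figure D1:**
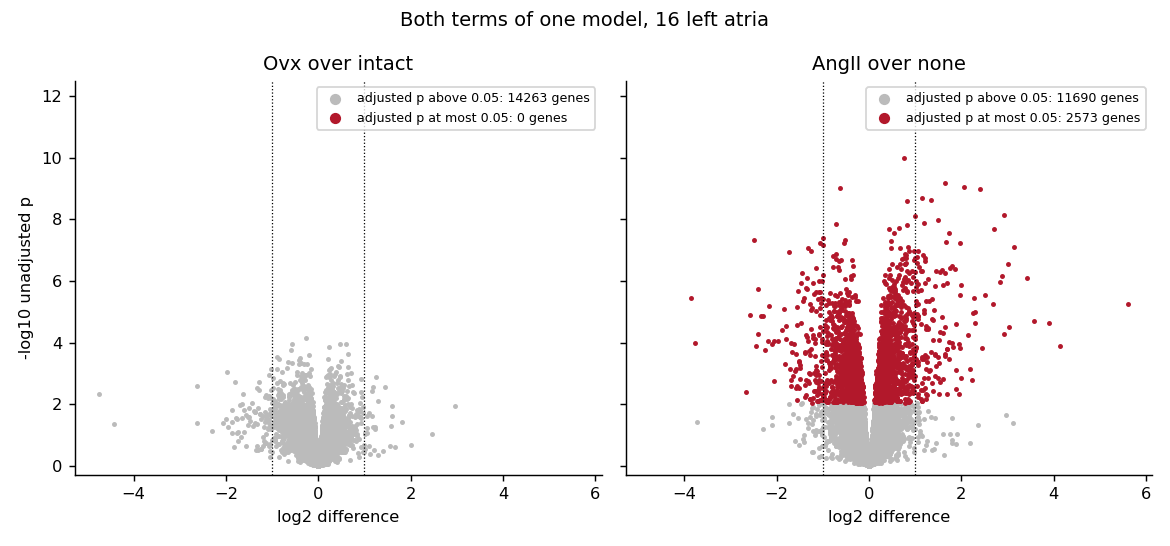
Each point is 1 of 14263 genes, with its log2 difference on the x axis and −log10 of the unadjusted p on the y axis, for Ovx over intact on the left and AngII over no AngII on the right. 0 genes passed the adjusted p of 0.05 for Ovx, against 2573 (red) for AngII, and the dotted lines mark a log2 difference of 1.

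The precision of the comparison was uneven between genes but fine for most. The median standard error of the Ovx difference was 0.09 on the log2 scale and the median half-width of its 95% interval was 0.20. For 13131 genes (92.1%) the whole interval lay within a log2 difference of 1 in either direction, and for 10578 genes (74.2%) within 0.5. Among genes with a mean of at least 50 the shares were 96.9% and 84.6%. A missing call does not show that Ovx and intact atria were alike.

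Several features of the libraries bear on the results. Deposited totals were 17598222 to 18985762 in the Ovx libraries and 19592551 to 21513796 in the intact ones, and the median-of-ratios factors were 0.945 to 0.950 and 1.06 to 1.07, so that the sides were offset by a log2 of −0.17 over most genes before rescaling. Each column was therefore divided by its factor. On the values as deposited, 4103 genes passed, 15 higher and 4088 lower in Ovx atria. The label of Ctrl replicate 4 calls it a control, but the upper header row of the table spans it with the AngII columns (3 columns under controls, 5 under AngII), and its mean correlation over genes was 0.945 with Ctrl and 0.956 with AngII. It had the lowest mean correlation of the 16 libraries with every group, and Ctrl replicate 2 was also slightly closer to AngII (0.970) than to Ctrl (0.966). The Ctrl mean of that replicate includes Ctrl replicate 4. Ctrl replicates 1, 2 and 3 were each closest to Ovx (0.981, 0.9775 and 0.971). Ctrl replicate 4 was kept as Ctrl, and with it counted as AngII or left out, 0 genes passed for Ovx as well. Myl7, the atrial myosin light chain, had rescaled values of 79314 to 113444 in Ovx and 52922 to 119978 in intact libraries, while Myl2, its ventricular counterpart, stayed at 15.7 or below, and the 6 lung markers summed to 14.9 at most. Of 8 atrial cardiomyocyte markers, 6 had a log2 difference above 0 (median 0.14). Myl7 alone was higher at p under 0.05, beside 4.04% of all genes. The part of cell content in the differences below was not tested. Xist was present in every library and Ddx3y, Uty, Kdm5d and Eif2s3y were listed at 0 in all.

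The genes with the smallest p differed by small margins, and most by similar amounts in both AngII states. Pex3, needed for the assembly of peroxisomal membranes, had values of 564, 577, 564 and 560 in Ovx against 461, 482, 508 and 477 in Ctrl. Under AngII it had 565, 628, 578 and 552 in Ovx + AngII against 504, 448, 530 and 532 in AngII, and its log2 difference was 0.22 (0.12 to 0.32). All 8 Ovx libraries lay above all 8 intact ones, which held for this gene alone (0.00701% of those tested), with as many in the other direction (0.00701%, or 0.014% in all). The difference amounted to a small fraction of the level of Pex3 and did not pass (adjusted p = 0.343, limma).

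Among the other leading genes on the higher side were a calcium-dependent kinase, an adhesion gene and regulators of vesicles and cilia. Camk1d, a calcium/calmodulin-dependent kinase, had values of 2869, 2321, 2288 and 2747 in Ovx against 2404, 1767, 1784 and 1488 in Ctrl, and of 2628, 2322, 2527 and 2653 in Ovx + AngII against 2001, 1623, 2238 and 1501 in AngII. Ctrl replicate 1 was the only intact library within the Ovx range, and the log2 difference was 0.47 without AngII and 0.48 under AngII. Fat3, an atypical cadherin, ran from 99.0 over a median of 152 to 257 in the 8 Ovx libraries and from 61.5 over 102 to 168 in the intact ones (log2 difference 0.61). It was also lower under AngII, with an AngII term of −0.84 (adjusted p = 0.000231, limma). Asb4, an ankyrin-repeat component of ubiquitin ligases, differed by 0.65, with 0.39 without AngII and 0.90 under AngII. Vtcn1, which encodes the T cell inhibitory ligand B7-H4, differed by 0.63, and Sytl2, an effector of vesicle transport, by 0.50. The kinesin gene Kif6 (0.43), Rfx3, a transcription factor of cilia (0.45), the kinase gene Dyrk2 (0.27) and the zinc-finger gene Tshz1 (0.24) made up the rest. The Ovx and intact libraries overlapped for every one of these genes.

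On the lower side, Lrrc10, a leucine-rich repeat gene restricted to cardiomyocytes, had the smallest unadjusted p of all genes without AngII (6.35e-05, limma). Its values were 990, 1026, 1193 and 1254 in Ovx against 1428, 2022, 2037 and 2599 in Ctrl, and 1913, 1910, 2366 and 1905 in Ovx + AngII against 2077, 2935, 2325 and 2963 in AngII. The groups did not overlap without AngII (log2 difference −0.83) and overlapped under AngII through Ovx + AngII replicate 3 (−0.34). The difference between the states had an unadjusted p of 0.0390 and an adjusted p of 0.830 (limma). AngII itself was accompanied by higher Lrrc10 in the same model (0.61, adjusted p = 0.00247, limma). Fkbp5, a glucocorticoid-induced co-chaperone of steroid receptors, had values of 539, 554, 587 and 449 in Ovx against 853, 602, 533 and 914 in Ctrl. Under AngII it had 655, 687, 636 and 557 in Ovx + AngII against 750, 1169, 1289 and 1645 in AngII, so that the Ovx + AngII libraries all lay below the AngII ones (log2 difference −0.42 without AngII, −0.89 under AngII, −0.65 over both).

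Cd33, a sialic acid-binding receptor of myeloid cells, ran from 62.6 over a median of 96.5 to 126 in Ovx and from 111 over 142 to 171 in intact libraries (log2 difference −0.57). Ifi205, a member of the interferon-inducible p200 family, differed by −0.85 and had values of 354, 315, 359 and 374 in Ovx against 468, 486, 461 and 878 in Ctrl. It has near-identical relatives, so reads may have been shared among them. The Rac1 activator Tiam1 (−0.39), the vesicle tethering subunit Trappc6a (−0.42), Rassf1 of the Hippo pathway (−0.38), the ascorbate-linked electron carrier Cyb561 (−0.56) and the tRNA methyltransferase-like gene Trmt1l (−0.21) had the remaining places. All 20 leading genes kept their direction in each AngII state taken alone and whenever any 1 library was left out, which the choice by small p favours. In the RefSeq annotation Pex3 overlaps Adat2, and the counting is not stated to have used strand.

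**Figure D2:**
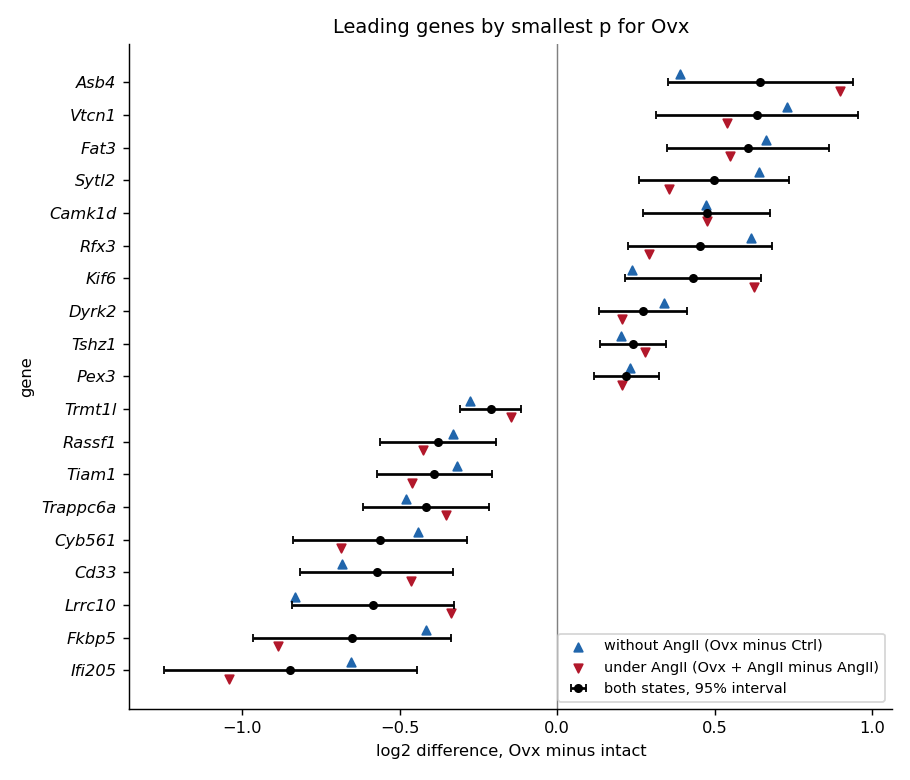
Log2 difference, Ovx minus intact, of leading genes with the smallest p in each direction, with its 95% interval (black), and the differences without AngII (blue) and under AngII (red). Asb4, Lrrc10 and Fkbp5 differ most between the states, while Camk1d had 0.47 without AngII and 0.48 under AngII.

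**Figure D3:**
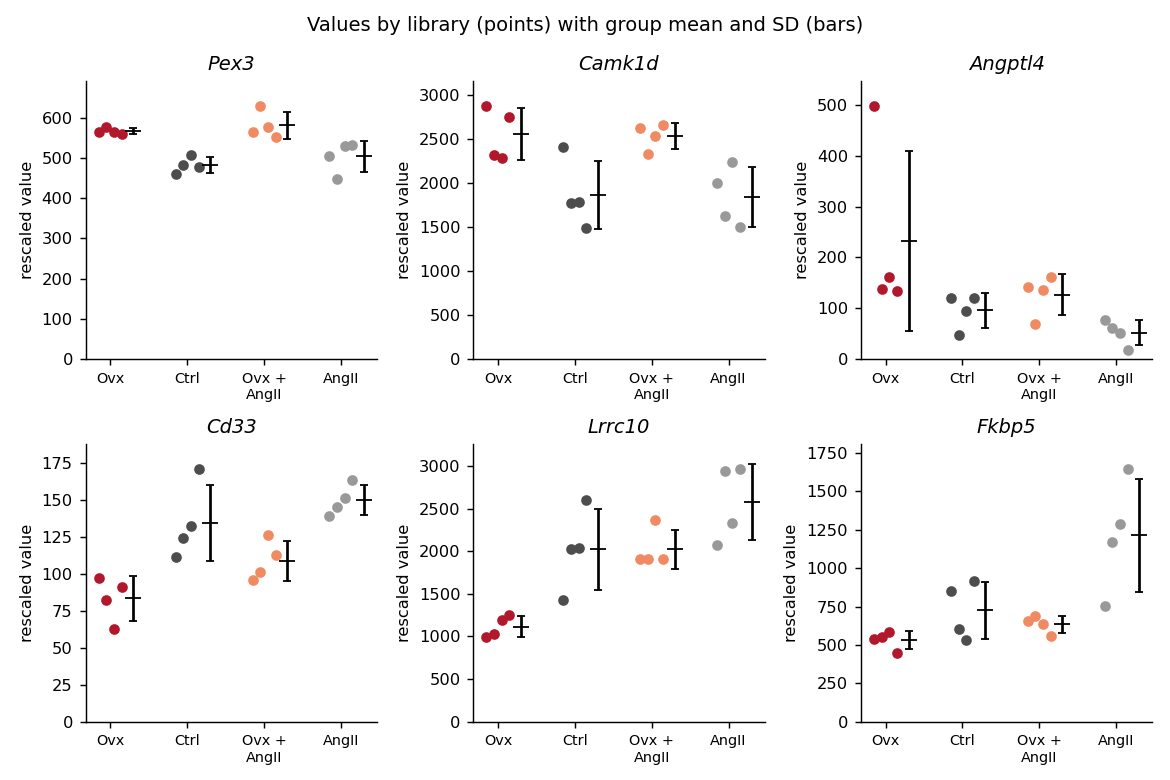
Rescaled value in each of 16 libraries (points) with the group mean and SD (bars, n = 4) for Pex3, Camk1d, Angptl4, Cd33, Lrrc10 and Fkbp5. Pex3 separates all 8 Ovx from all 8 intact libraries, and 1 Ovx library of Angptl4, at 497, stands above the rest.

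The differences within each AngII state were taken between separate libraries, and gave no call either. Their p-values are not independent, because both states were fitted together with a shared estimate of spread. Each gene therefore had the same standard error in both states (0.139 for Camk1d). A small p in both states is for that reason not agreement of independent tests. Ovx against Ctrl had 0 genes past the adjusted p and 1235 at p under 0.05 (8.66%), with a smallest adjusted p of 0.502. Ovx + AngII against AngII had 0 and 881 (6.18%), with a smallest adjusted p of 0.226. At p under 0.05 in both states were 97 genes, 7.85% of the 1235 and 11.01% of the 881: 35 were higher in both, 38 lower in both and 24 opposite. The test of the difference between the states had 0 genes past the adjusted p and 828 at p under 0.05 (5.81%), with a smallest adjusted p of 0.830. The genes with the smallest p of that difference at a mean of at least 50 were Tom1l1, Thbs4 and Pdxk. Tom1l1, an adaptor of endosomal sorting, had values of 448, 493, 424 and 426 in Ovx against 605, 561, 558 and 589 in Ctrl, but 515, 546, 519 and 550 in Ovx + AngII against 520, 474, 487 and 463 in AngII. It was below Ctrl in every Ovx library without AngII and, under AngII, above 3 of the 4 AngII libraries or all of them (log2 differences −0.37 and 0.13). In RefSeq it overlaps Cox11. Thbs4, a matricellular thrombospondin, had 13.1, 3.11, 3.01 and 13.4 in Ovx against 28.1, 21.5, 88.7 and 45.0 in Ctrl, and 493, 165, 1011 and 753 in Ovx + AngII against 332, 112, 150 and 60.2 in AngII. The averaged Ovx difference of Thbs4, −0.27 with an interval of −1.70 to 1.16, therefore describes neither state. The vitamin B6 kinase gene Pdxk was near level without AngII (0.03) and lower under AngII (−0.59).

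Genes of hormone sensing had no call. Esr1 had values of 157, 104, 155 and 162 in Ovx against 127, 117, 147 and 136 in Ctrl, and 185, 109, 126 and 148 in Ovx + AngII against 228, 175, 86.7 and 83.1 in AngII. The groups overlapped in both states, and the log2 difference was 0.11 (−0.30 to 0.51). Pgr, itself estrogen-induced in the reproductive tract, was too low to test: it had 4.11 in Ovx replicate 2, 4.92 in Ctrl replicate 4 and 0 in the other 14 libraries. Of 16 tested estrogen and sex steroid receptors, co-regulators and enzymes, 2 were higher at p under 0.05, beside 4.04% of all genes. Among them was Esr2, at 10.53 to 43.3 in Ovx against 5.06 to 19.4 in intact libraries (log2 difference 0.88). Its adjusted p was 0.474 (limma), and it was close to the floor of the genes tested. Aromatase (Cyp19a1), which makes estradiol from androgens, was listed at 0 in every library. Of 16 genes known to be estrogen-induced in other tissues, 4 were lower at p under 0.05, beside 5.31% of all genes. They were the cyclin gene Ccnd1 (−0.48), Wnt4 (−0.58), the cathepsin gene Ctsd (−0.16) and the complement gene C3 (−0.34).

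Interferon-stimulated genes lay on the lower side without exception, although none passed. All 32 members tested had a log2 difference below 0, and 26 were lower at p under 0.05, beside 5.31% of all genes. Their median was −0.63, against 0.00 over all genes, with −0.58 without AngII and −0.64 under AngII. The group includes the transcription factors that carry the interferon signal (Stat2, Irf7, Irf9), antiviral effectors (Ifit1, Ifit3, Isg15, Mx1, Mx2, Oas1a, Rsad2) and the guanylate-binding and immunity-related GTPases (Gbp2, Gbp3, Igtp, Iigp1, Irgm1). In bulk tissue, fewer cells of a type and less RNA per cell cannot be told apart.

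Promoter sequences from RefSeq (build GRCm38.p6, the same assembly as mm10) are shown for an antiviral effector with overlapping matches, an antiviral effector with separate matches and a pair of GTPases, because interferon-stimulated genes share a known element. Each runs from 250 bases before to 50 bases after the start of transcription, and capitals mark every match, on either strand, to GAAA and GAAA with any 2 bases between them, the core of the interferon-stimulated response element. Isg15 is shown from chr4:156200769-156201068 (minus strand), Ifit1 from chr19:34640639-34640938 (plus strand), Gbp2 from chr3:142620413-142620712 (plus strand) and Igtp from chr11:58199306-58199605 (plus strand).
Isg15: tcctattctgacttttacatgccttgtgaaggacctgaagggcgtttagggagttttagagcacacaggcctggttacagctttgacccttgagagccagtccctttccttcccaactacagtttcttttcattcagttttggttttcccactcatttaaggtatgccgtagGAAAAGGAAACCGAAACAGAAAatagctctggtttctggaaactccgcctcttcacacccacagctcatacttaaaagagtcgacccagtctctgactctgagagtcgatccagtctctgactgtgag
Ifit1: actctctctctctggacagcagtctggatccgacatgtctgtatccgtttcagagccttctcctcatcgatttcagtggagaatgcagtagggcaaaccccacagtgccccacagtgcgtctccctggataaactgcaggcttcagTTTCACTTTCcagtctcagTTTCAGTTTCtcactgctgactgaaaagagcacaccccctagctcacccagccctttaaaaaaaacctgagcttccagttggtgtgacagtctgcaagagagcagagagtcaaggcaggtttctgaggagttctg
Gbp2: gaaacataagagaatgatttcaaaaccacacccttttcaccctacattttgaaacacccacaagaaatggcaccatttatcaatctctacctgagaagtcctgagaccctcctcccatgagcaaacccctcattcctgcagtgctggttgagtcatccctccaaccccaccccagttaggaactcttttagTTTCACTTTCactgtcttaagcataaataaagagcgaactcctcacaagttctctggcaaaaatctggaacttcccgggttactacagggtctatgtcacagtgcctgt
Igtp: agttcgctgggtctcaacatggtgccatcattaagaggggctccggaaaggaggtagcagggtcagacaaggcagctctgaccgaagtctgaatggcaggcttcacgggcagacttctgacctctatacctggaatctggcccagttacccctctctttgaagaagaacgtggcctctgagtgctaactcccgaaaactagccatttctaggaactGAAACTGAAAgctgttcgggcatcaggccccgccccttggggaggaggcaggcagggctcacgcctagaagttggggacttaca
Of the 32 genes, 22 had a promoter in the table, and 12 of these (54.5%) held the letters in at least 1 promoter, against 438 of 11140 tested genes (3.93%). The list was made of interferon-stimulated genes, so this share describes the list and not the Ovx difference. The 20 leading genes had promoters for 16, of which 1, Ifi205, held them. The consensus estrogen response element, GGTCA and TGACC with any 3 bases between them, was in no promoter of the 22 or the 16 and in 2 of 11140 genes. The glucocorticoid element, AGAACA and TGTTCT with any 3 bases between them, was in none of the 16, CACGTG (a clock E-box) was in 1, Fkbp5, and TTATGTAA (a D-box) in none, with 0.00898%, 11.3% and 0.718% of all tested genes for comparison.

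The levels of these genes were even among Ovx libraries and uneven among intact ones. Summed over the 32 members, Ovx libraries ran from 12926 over a median of 15133 to 16559, a highest over lowest of 1.28. Intact libraries ran from 12362 over 22597 to 59326, a ratio of 4.80, and the SD of the log2 sum was 0.12 in Ovx and 0.74 in intact libraries. Ctrl replicate 1 had the lowest sum of all 16 libraries and no member above the Ovx range, while Ctrl replicate 4 had all 32 members above it, AngII replicate 2 had 31 and AngII replicate 3 had 28. The transcription factor gene Irf7 had values of 266, 240, 295 and 353 in Ovx against 211, 444, 521 and 1465 in Ctrl, and 258, 323, 432 and 368 in Ovx + AngII against 590, 750, 966 and 1068 in AngII. The groups overlapped without AngII through Ctrl replicate 1 and did not overlap under AngII (log2 difference −1.06, adjusted p = 0.343, limma). Igtp, a GTPase strongly induced by interferon gamma, had 464, 278, 459 and 505 in Ovx against 452, 449, 5181 and 4802 in Ctrl. Under AngII it had 455, 368, 426 and 370 in Ovx + AngII against 607, 1063, 898 and 365 in AngII, for a log2 difference of −1.30, and of −0.50 without Ctrl replicates 3 and 4. Iigp1 had the same pair high, at 6590 and 6114, against 448 to 1795 in the other 14 libraries. Isg15 had 156, 81.0, 151 and 118 in Ovx against 98.8, 168, 211 and 531 in Ctrl, and 82.8, 157, 161 and 138 in Ovx + AngII against 232, 296, 281 and 206 in AngII, with no overlap under AngII.

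Without Ctrl replicates 3 and 4, a setting chosen after the values were seen, 31 of the 32 members remained below 0 with a median of −0.38, and 17 were lower at p under 0.05, beside 3.52% of all genes. T and NK cell markers summed to 140 to 224 in Ovx and to 87.5 to 389 in intact libraries, highest in Ctrl replicate 3. B and plasma cell markers summed to 169 to 476 in Ovx and to 91.4 to 1461 in intact libraries, highest in Ctrl replicate 4, and neutrophil markers to 136 to 492 and to 170 to 1318. The part of these cells in the lower interferon-stimulated levels was not tested.

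**Figure D4:**
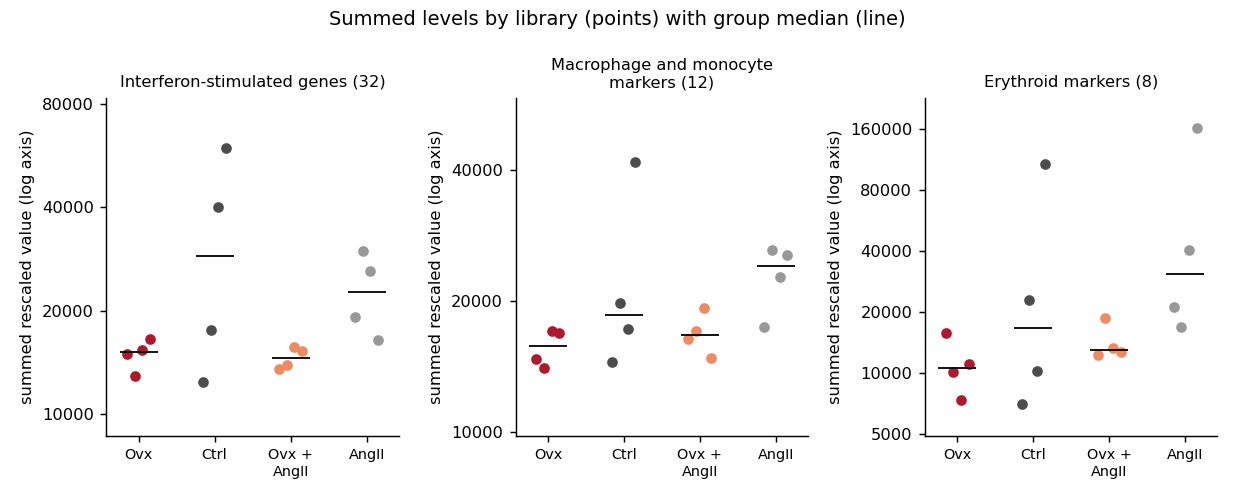
Summed rescaled value in each library (points, log axis) with the group median (line) for 32 interferon-stimulated genes, 12 macrophage and monocyte markers and 8 erythroid markers, in Ovx, Ctrl, Ovx + AngII and AngII. Ovx libraries lie close together in the first panel, at 12926 to 16559, and intact libraries spread over 12362 to 59326.

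Macrophage, complement and chemokine genes lay on the same side. All 12 macrophage and monocyte markers had a log2 difference below 0 (median −0.42). At p under 0.05, 7 were lower, beside 5.31% of all genes. C1qa, a subunit of the complement starter C1q made by tissue macrophages, had values of 1882, 1690, 1968 and 2058 in Ovx against 1714, 2895, 2432 and 4941 in Ctrl, and 2073, 2294, 2333 and 1834 in Ovx + AngII against 2437, 3651, 3040 and 3254 in AngII. It did not overlap under AngII (log2 difference −0.53) and overlapped through Ctrl replicate 1 without AngII (−0.55). The lysosomal glycoprotein gene Cd68 differed by −0.58 and the mannose receptor gene Mrc1 by −0.31. The 12 markers summed to 14040 to 19301 in Ovx and to 14474 to 41810 in intact libraries, with Ctrl replicate 1 lowest and Ctrl replicate 4 highest among the intact. Of 23 antigen presentation and complement genes, 7 were lower at p under 0.05, beside 5.31% of all genes. Among them were C1qb (−0.53), C1qc (−0.50) and C4b (−0.45). Of the 7, C1qa and C1qb are also counted among the macrophage markers, and C3 among the estrogen-induced genes. Of 31 cytokine, chemokine and inflammation genes, 14 were lower and 1 higher, beside 5.31% and 4.04% of all genes. The lower ones included Ptgs2, the inducible prostaglandin synthase (−0.52), and the monocyte chemokine gene Ccl8 (−0.74). Cxcl10, an interferon-induced T cell chemokine, was at 6.12 to 38.7 in Ovx and at 3.65 to 406 in intact libraries. The higher one was Tgfb2, a growth factor of fibrosis, at 0.45. The count of 14 was 8 without Ctrl replicate 4 or without AngII replicate 2, beside 4.03% and 4.33% of all genes. It was 9 without AngII replicate 3 or Ovx replicate 2 (4.49% and 4.32% of all genes). Without Ctrl replicates 3 and 4 together it was 5 (3.52% of all genes).

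Erythroid genes were also lower and depended on few libraries. Of 8 markers, 5 were lower at p under 0.05, beside 5.31% of all genes. Leading them were the red cell anion exchanger Slc4a1 (−2.63) and the heme synthesis gene Alas2 (−1.50). Hba-a1, an alpha globin gene with a near-identical copy, had 13065, 7967, 5926 and 8800 in Ovx against 5519, 18410, 8977 and 90505 in Ctrl, and 8782, 15023, 11291 and 9952 in Ovx + AngII against 17472, 14104, 34151 and 128362 in AngII. Ctrl replicate 4 and AngII replicate 4 stood above the other intact libraries, and haemoglobin genes made up 0.970% and 1.46% of their values against 0.0613% to 0.349% in the other 6.

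**Figure D5:**
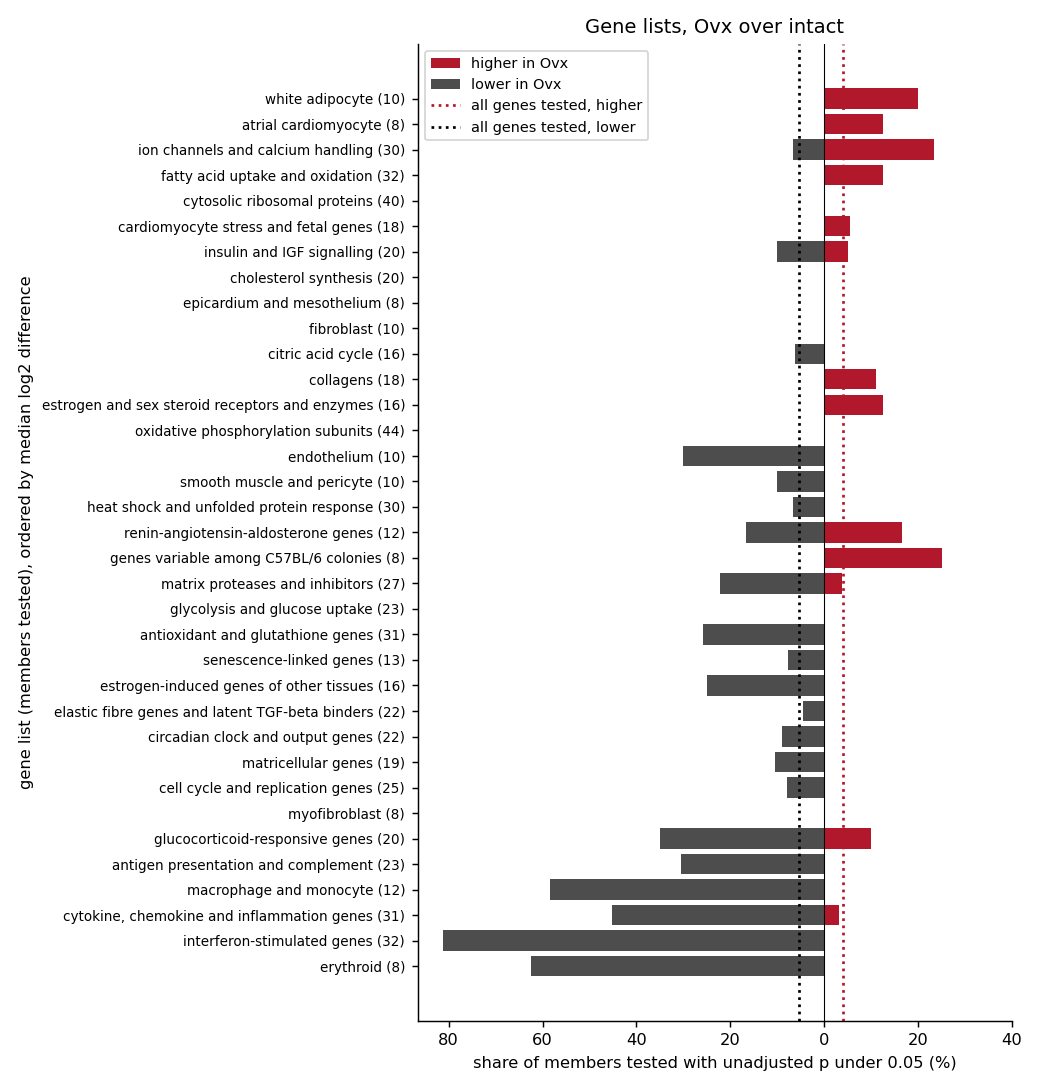
Share of each gene list's tested members (numbers in parentheses) at unadjusted p under 0.05, higher in Ovx to the right and lower to the left, for lists with 8 or more tested members, ordered by median log2 difference. Dotted lines give the shares over all 14263 genes, 4.04% higher and 5.31% lower, and interferon-stimulated genes reach farthest on the lower side with 26 of 32.

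Glucocorticoid-responsive genes had 7 members lower and 2 higher of 20 at p under 0.05 (median −0.29), beside 5.31% and 4.04% of all genes. Their sums overlapped, at 19804 to 28316.5 in Ovx and 15747 to 28278 in intact libraries. Besides Fkbp5 the lower ones were Fam107a (−0.89), the metallothionein genes Mt1 (−0.34) and Mt2 (−0.83), Lcn2 (−1.62), Nfkbia (−0.27) and Tat (−0.71). Mt2 had values of 225, 264, 191 and 149 in Ovx against 264, 185, 331 and 519 in Ctrl, and 346, 230, 396 and 308 in Ovx + AngII against 439, 476, 1071 and 891 in AngII. It did not overlap under AngII and overlapped without it. Lcn2 rested on Ctrl replicate 4, at 1527, against 14.0 to 186 in the other 15 libraries. The 2 higher ones, Angptl4 and Pdk4, also belong to fatty acid use. Of the lower ones, Lcn2 and Nfkbia are also counted among the cytokine and inflammation genes. Mt1 and Mt2 are also counted among the antioxidant genes. Without Ctrl replicate 2 the lower count was 11, beside 6.1% of all genes.

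Genes of fatty acid uptake and oxidation lay slightly above 0 in 29 of 32 cases, beside 7307 of all 14263 genes, with a median of 0.09. At p under 0.05, 4 were higher, beside 4.04% of all genes. The 32 genes summed to 144282 to 202300 in Ovx and to 105475 to 200626 in intact libraries, lowest in AngII replicate 1. Angptl4, a secreted inhibitor of lipoprotein lipase, had 497, 138, 161 and 133 in Ovx against 121, 47.8, 95.2 and 120 in Ctrl, and 141, 68.7, 136 and 161 in Ovx + AngII against 77.0, 61.1, 50.9 and 18.2 in AngII. The Ovx libraries all lay above the Ctrl ones, and 3 of 4 Ovx + AngII libraries above the AngII ones (log2 difference 1.24, adjusted p = 0.347, limma). The difference was 1.05 without Ovx replicate 1. Pdk4, which diverts pyruvate from oxidation, differed by 0.64, the uncoupling protein gene Ucp3 by 0.86 and the thioesterase gene Acot2 by 0.26. White adipocyte markers summed to 5056 to 12266 in Ovx and 4629 to 7368 in intact libraries, highest in Ovx replicate 1. Of the 10 markers, 9 lay above 0, and Pck1 and Lep were higher at p under 0.05, beside 4.04% of all genes. The median of these markers was 0.62, with 1.67 without AngII and −0.004 under AngII. Their part in these values was not tested. The respiratory chain was level: 0 of 44 oxidative phosphorylation subunits were at p under 0.05, and their differences ran from −0.06 to 0.10.

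Ion channel and calcium handling genes had 7 members higher and 2 lower of 30 at p under 0.05 (median 0.12), beside 4.04% and 5.31% of all genes. Camk2d, the main cardiac calmodulin-dependent kinase, had 3850, 3840, 3493 and 4234 in Ovx against 3762, 3663, 3433 and 3260 in Ctrl, and 3769, 4229, 3827 and 3951 in Ovx + AngII against 3220, 3070, 3466 and 3374 in AngII. It overlapped without AngII and not under AngII (log2 differences 0.13 and 0.26). The T-type calcium channel genes Cacna1h (0.46) and Cacna1g (0.43), the atrial leak potassium channel gene Kcnk3 (0.30), the sodium-calcium exchanger gene Slc8a1 (0.30), the inward rectifier gene Kcnj2 (0.19) and the atrial connexin gene Gja5 (0.26) were the others on the higher side. Hcn2, a pacemaker channel gene, was among the lower ones (−0.54). Cacna1h was at 7309 to 8823 in the Ovx libraries and at 3488 to 8613 in the intact ones, with Ctrl replicate 4 lowest. Without Ctrl replicates 3 and 4 the higher count was 4, beside 2.95% of all genes. AngII replicate 1 had the lowest sum over the 30 genes, at 353180. Without that library the higher count was 6, beside 5.52% of all genes. In that fit 18 genes lay above 0 and 12 below (median 0.08), against 22 and 8 with all libraries.

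The renin-angiotensin system sets blood pressure and is the pathway of the infused peptide. Of its 12 genes tested, 2 were lower and 2 higher at p under 0.05, beside 5.31% and 4.04% of all genes. Ace, the angiotensin-converting enzyme gene, had 2509, 2290, 2530 and 2119 in Ovx against 2845, 2397, 3782 and 4786 in Ctrl, and 4634, 4679, 6172 and 4106 in Ovx + AngII against 5511, 6309, 7158 and 7301 in AngII. The groups overlapped in both states, through Ctrl replicate 2 and Ovx + AngII replicate 3 (log2 differences −0.50 and −0.43). Ace rose under AngII, by 1.004 on the log2 scale (adjusted p = 5.33e-05, limma). Hsd11b1, which regenerates active glucocorticoid, differed by −0.45, the aminopeptidase genes Lnpep by 0.17 and Enpep by 0.20. The receptor gene Agtr1a differed by 0.11 (−0.18 to 0.40).

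The natriuretic peptide genes and Ltbp2, for which the AngII term passed (Nppb 1.59, Ltbp2 2.88), had intervals of the Ovx difference that included 0 over both states. Nppa differed by −0.06 (−0.40 to 0.29) and Nppb by −0.27 (−0.69 to 0.16). The latent TGF-beta binder gene Ltbp2 had 141, 91.9, 134 and 80.1 in Ovx against 191, 229, 343 and 871 in Ctrl, without overlap, and 1171, 1069, 2761 and 1831 in Ovx + AngII against 2230, 1033, 1604 and 719 in AngII, with overlap. Its differences were −1.63 without AngII and 0.31 under AngII (difference between states adjusted p = 0.830, limma), and −0.66 (−1.46 to 0.14) over both. Cilp, a cartilage and fibroblast matrix gene, had −1.46 and 0.68. Of 18 collagens, Col15a1 (0.25) and Col5a3 (0.37) were higher at p under 0.05 and none lower. Of 27 matrix proteases and inhibitors, 6 were lower, led by Adamtsl2 (−0.80) and Adamts8 (−1.15), and Adamts5 was higher (0.19). Over all genes 4.04% were higher and 5.31% lower.

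Clock genes varied widely among libraries of a group. Arntl, which encodes the core activator BMAL1, had 448, 76.7, 151 and 329 in Ovx against 149, 696, 84.7 and 669 in Ctrl, and 488, 668, 625 and 320 in Ovx + AngII against 101, 92.9, 152 and 308 in AngII. It overlapped without AngII and did not under AngII, and the Ovx difference over both was 0.68 (−0.42 to 1.78). Under AngII, Ciart, a repressor of the clock, ran the other way, with 40.3, 68.0, 72.2 and 111 in Ovx + AngII against 313, 318, 231 and 165 in AngII. Of 22 clock and output genes, Cry1 (−0.24) and Per2 (−0.61) were lower at p under 0.05, beside 5.31% of all genes. The median of the 22 was 0.15 without AngII and −0.49 under AngII, so the counts over both describe neither state. The study gives a daytime window of several hours for tissue collection, the labels give no hour for a library, and its part was not tested.

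Among the remaining groups, cytosolic ribosomal protein genes lay above 0 in 39 of 40 cases, by a median of 0.06, and 0 of 40 were at p under 0.05. Of 31 antioxidant and glutathione genes 8 were lower, against 5.31% of all genes. Among them were the regulator Nfe2l2 (−0.22) and the glutathione peroxidase genes Gpx1 (−0.27) and Gpx4 (−0.16), beside the metallothioneins. Endothelial markers had 3 of 10 lower, beside 5.31% of all genes: Vwf (−0.51), Pecam1 (−0.18) and Flt1 (−0.12). The 10 lay 5 above and 5 below 0, with a median of −0.008. Schwann cell and neuron markers had 3 of 7 higher, beside 4.04% of all genes, among them the noradrenaline synthesis gene Dbh (1.18) and Kcna1 (0.54). Of the 7, 4 lay above 0 and 3 below. The listed markers summed to 633 to 923 in Ovx and to 481 to 1074 in intact libraries. The 10 fibroblast markers had none at p under 0.05.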

How the data were processed

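RNA from whole left atria was made into stranded mRNA libraries and sequenced paired-end. STAR, Salmon and build mm10 are named in the submitters' processing notes, without versions, and the study's methods name DESeq2 for normalisation and testing. The values are a signal the authors deposited: gene counts divided by size factors. They are not whole, and between 74.1% and 90.4% of low values per library were whole multiples (within 0.1) of a fitted step, implying 15958851 to 25161139 reads, so no count model was run. Each of the 16 columns was divided by its median-of-ratios factor, because the Ovx and intact columns differed in scale. Whether the 2 sides had been normalised separately is not stated. Genes with a mean of at least 10 were fitted on log2(value + 1) with limma 3.58.1 in R 4.3.3 (mean trend, two-sided, Benjamini-Hochberg over all genes tested): an additive model of Ovx and AngII, and group means for each AngII state and their difference. A gene passed at an adjusted p of 0.05, and was called with an absolute log2 difference of 1 as well. Fold changes on this scale understate those of low genes. The script was tested on simulated data.

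The genes named were the 10 called with the largest change in each direction at a mean of at least 50, filled by the smallest unadjusted p where fewer passed, which was every place here; the 3 smallest p of the difference between states; the 5 smallest adjusted p; up to 3 members per list that passed, of which there were none; and Esr1, Pgr, Ltbp2, Cilp, Thbs4, Nppa, Nppb, Agtr1a and Arntl. Predicted or date-like symbols (774 of those tested) were not named. Some genes, 1 of the leading ones among them, are counted but not reported here. All other genes were picked within their lists after their values were seen. Members and lists were chosen with earlier results of these data known, and lists were described by counts and medians with no test. As no gene was called, promoter motifs were read for the 20 leading genes, and the interferon-stimulated response element was added after the data were seen. Gene positions and promoters are from RefSeq, GRCm38.p6. Alternatives covered scaling, pseudocount, filter, variance model, the AngII term and each library left out.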

Additional observations from a re-analysis of the deposited data

Results flagged for a closer look

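In 5 of the 120 groups of 4 libraries examined for the named genes, 1 library stood far from the other 3 by Dixon's gap ratio at the 95% level, where chance gives about 1 in 20, or 6. Lrrc10 was highest in Ovx + AngII replicate 3, at 2366 against 1905 to 1913 in the others, and this is the library through which Ovx + AngII and AngII overlap. Tiam1 was highest in Ovx replicate 1, at 323 against 256 to 265. Ifi205 was highest in Ctrl replicate 4, at 878 against 461 to 486. Esr1 was lowest in Ovx replicate 2, at 104 against 155 to 162. Nppb was highest in Ovx replicate 4, at 4721 against 4027 to 4084.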

How the results depend on the processing

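For Ovx over both states, 0 genes passed the adjusted p under any alternative other than the values as deposited. On those, 4103 passed, 71 were called and 6167 were at unadjusted p under 0.05, with the median of all genes at −0.17 instead of 0.00, an offset that dividing by the factors removes by construction. The same setting gave 1381 passed, 32 called and 4415 at p under 0.05 without AngII, and 108, 5 and 3516 under AngII. It turned Esr1 to −0.0627 and Agtr1a to −0.0575, and moved the lower glucocorticoid-responsive members to 13 and the higher ion channel members to 1, where 42.8% of all genes were lower and 0.385% higher at p under 0.05. Array weights gave 1375 genes at p under 0.05 under AngII. A fit on the 8 libraries of that state alone passed 1 gene, Adam19 (0.77, adjusted p = 0.0251, limma).

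Leaving out each library in turn, 0 genes passed for Ovx, the smallest adjusted p ran from 0.0759 to 0.624 (limma), and 1025 to 1794 genes were at p under 0.05. Without AngII, 0 to 3 genes passed, 0 to 1 were called and 785 (without Ctrl replicate 4) to 2070 (without Ctrl replicate 1) were at p under 0.05, with 792 without Ovx replicate 2 and 814 without Ovx replicate 4. The 3 were Lrrc10 (−0.99), Phlda1 (−1.48) and Sytl2 (0.82), without Ctrl replicate 1. Under AngII the ranges were 0 to 2, 0 to 2 and 694 to 1299. The 2 were Ifi205 (−1.37) and Retnla (−1.19), without AngII replicate 1. For the difference between states they were 0 to 1, 0 to 1 and 603 to 1178. Members at p under 0.05 ranged over 18 to 31 interferon-stimulated, 6 to 10 macrophage, 8 to 16 cytokine, 5 to 11 glucocorticoid-responsive and 5 to 9 ion channel genes. The share of all genes lower ran from 4.03% (without Ctrl replicate 4) to 7.17% (without Ctrl replicate 1). The share higher ran from 3.1% (without Ovx + AngII replicate 4) to 5.52% (without AngII replicate 1). Thbs4 ran from −0.61 to 0.0715, and turned to 0.0715, 0.03 and 0.04 without Ctrl replicate 3, Ovx replicate 2 and Ovx replicate 3.

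Settings chosen after seeing the data were Ctrl replicate 4 counted as AngII, which turned Thbs4 to 0.21 and Nppa to 0.0261, and leaving out Ctrl replicates 3 and 4. The latter turned Thbs4 to 0.42 and Cilp to 0.14 and gave 17 interferon-stimulated, 5 cytokine and 4 ion channel members. In it 3.52% of all genes were lower and 2.95% higher at p under 0.05. The cause was not tested. Over 39 genes and 1131 alternatives, 1096 kept direction and side of the threshold, 9 reversed and 26 passed, all 26 on the values as deposited. No paired analysis was possible because the labels give the groups no shared replicate numbers.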

Other observations

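Retnla, a secreted protein gene of alternatively activated macrophages, was singled out after its values were seen. It had 237, 284, 233 and 258 in Ovx against 138, 168, 185 and 157 in Ctrl, and 134, 142, 113 and 123 in Ovx + AngII against 15.96, 267, 336 and 278 in AngII. The Ovx libraries all lay above Ctrl, and the Ovx + AngII libraries below 3 of the 4 AngII libraries. AngII replicate 1 held the remaining value, and with it the difference between the states was not past the threshold (adjusted p = 0.936, limma). Without it that difference was −1.83 (adjusted p = 0.000583, limma). This was 1 of 16 such refits, with no adjustment across them, and it left out the value that ran against the pattern. The p-value is therefore no support for the pattern. What sets that library's value apart was not tested.

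Tmem254c, a gene known to vary between C57BL/6 colonies and with close paralogs, had 484, 181, 37.4 and 45.9 in Ovx against 8.16, 14.3, 0 and 0 in Ctrl, and 47.7, 26.6, 65.4 and 10.8 in Ovx + AngII against 53.6, 0, 8.25 and 168 in AngII. Its fitted log2 difference of 2.97 had an interval of 0.76 to 5.17 (adjusted p = 0.473, limma). Nnt, the transhydrogenase gene that is deleted in part in C57BL/6J, differed by −0.05.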
